A study of Homo sapiens with 36 samples.

Results

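The COUP-TF orphan receptors NR2F1, NR2F2 and NR2F6 and the antisense transcript NR2F1-AS1 were followed through 36 RNA-Seq libraries of DOX-inducible melanoma cells. They were found by Ensembl identifier, without its version, matched to GENCODE symbols, and are 4 of the 60656 genes in the files (ENSG00000175745.14 for NR2F1). The 3 human BRAF-mutant melanoma lines were 1205LuTR-NR2F1, WM793TR-NR2F1 and A375TR-NR2F1 (called 1205Lu, WM793 and A375 here). All libraries, controls included, came from cells with the Tet repressor and a lentiviral wild-type NR2F1 cDNA selected with hygromycin, and the sources do not say whether the cells were clones. The 4 treatments per line, each for 72 hours, were the DMSO vehicle and the combination BRAFi + MEKi, both without and with DOX, which gave 12 groups of 3 replicates. DOX (doxycycline) was used at 100 ng/mL, the BRAF inhibitor PLX4720 at 1 μM and the MEK inhibitor PD0325901 at 35 nM. The labels place a 24-hour step with or without DOX before the treatments, whereas the methods text describes DOX in that step and sets no group apart. Since every library given DOX also carried the cDNA, DOX itself and NR2F1 cannot be told apart.

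COUP-TFs are nuclear receptors without an established natural ligand. They bind paired hormone response half-sites as dimers, often repress transcription through corepressors, and can pair with retinoid X receptors. NR2F1 (COUP-TFI) is known for roles in neural and neural crest development and as a marker of dormant tumor cells, NR2F2 (COUP-TFII) for venous identity and mesenchymal tissue, and NR2F6 for restraint of cytokine transcription in T cells. NR2F1-AS1 is a long noncoding RNA read from the opposite strand of the NR2F1 locus.

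In GENCODE 44 on GRCh38, NR2F1 lay on the plus strand at chr5:93583222-93594611 and NR2F1-AS1 on the minus strand at chr5:93360779-93585649. NR2F2 was on the plus strand at chr15:96325938-96340263 and NR2F6 on the minus strand at chr19:17231883-17245919. NR2F1-AS1 overlapped the first coding exon of NR2F1. The overlap covered 158 coding bases of NR2F1, which were 12.3% of its coding bases and 0.695% of the exon bases of NR2F1-AS1, and it was in exons of 10 of the 75 NR2F1-AS1 transcripts. The library kit does not mark strand, and the introduced NR2F1 cDNA carries these bases, so reads within them could be assigned to either gene. The shared segment is shown because it is the only sequence in exons of both genes in GENCODE 44. The deposited values were quantified with GENCODE 35, whose exons were not compared. The segment lies at chr5:93585329-93585486, plus strand, and is coding bases 306 to 463 of NR2F1. It is all in lower case because no part is singled out.
NR2F1 segment shared with NR2F1-AS1: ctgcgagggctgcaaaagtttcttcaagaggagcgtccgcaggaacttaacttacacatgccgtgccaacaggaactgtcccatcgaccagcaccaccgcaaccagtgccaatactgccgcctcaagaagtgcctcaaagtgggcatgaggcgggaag

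**Figure D1:**
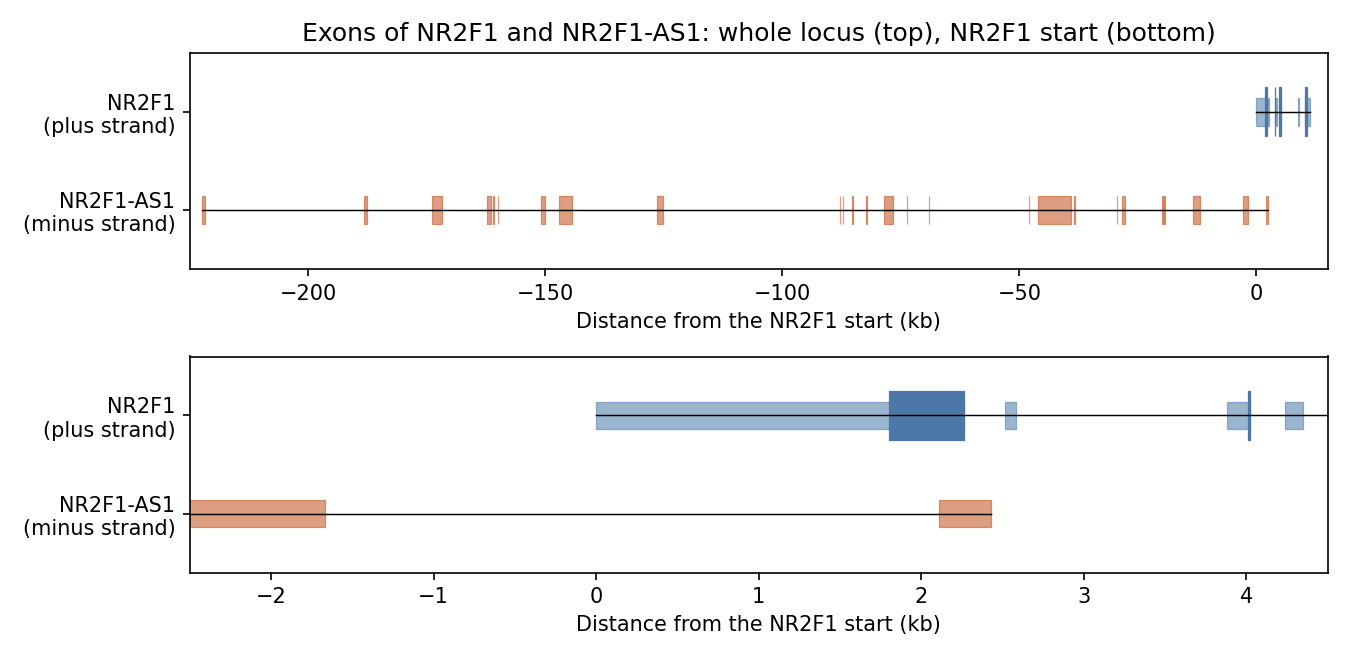
Exons of NR2F1 (blue, plus strand) and NR2F1-AS1 (orange, minus strand) against distance in kb from the NR2F1 start, with the whole locus in the top panel and the NR2F1 start in the bottom panel; tall dark bars are coding bases and thin lines join each gene's ends. The exon of NR2F1-AS1 nearest its start covers 158 bases at the end of the first NR2F1 coding exon, and its other exons lie upstream of NR2F1.

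The 3 receptors are related in sequence, so their coding sequences were compared. Coding sequences of NR2F1 and NR2F2 were identical at 84.2% of 1224 aligned bases and their proteins at 89.5% of 409 aligned residues. NR2F6 was more distant, with 76.2% base identity and 67.9% protein identity to NR2F1, and 72.7% and 67.6% to NR2F2. The longest exact run that NR2F1 shared was 35 bases, both with NR2F2 and with NR2F6. None of the 50-base windows of the NR2F1 coding sequence occurred in an NR2F2 or NR2F6 transcript. Only exact matches were sought and read length was not considered, so how far reads could pass between the genes was not tested. The stretch around the run shared with NR2F2 is shown for both paralogues. It covers coding bases 1138 to 1232 of NR2F1 and 1117 to 1211 of NR2F2 (GENCODE 44), with capitals at the 11 of 95 bases that differ.
NR2F1: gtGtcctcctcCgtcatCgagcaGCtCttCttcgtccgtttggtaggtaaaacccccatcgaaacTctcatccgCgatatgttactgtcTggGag
NR2F2: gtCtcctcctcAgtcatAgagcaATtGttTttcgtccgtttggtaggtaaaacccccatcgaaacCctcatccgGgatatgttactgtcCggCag

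Values are the authors' normalized expression, 1 value per gene and library. They summed to between 27027824 and 34621958 per library, and the number of reads estimated from the commonest low value was 6600000 in WM793 DMSO replicate 1 and between 23100000 and 60500000 in the others. These values are not read counts, so no counting interval is given, and intervals below reflect the spread between replicates. The 10 melanocyte markers summed to at least 12853 in every library, with SOX10 between 5684 and 24854, and S100B at least 1099.6. MLANA and TYR were at or near 0 in all lines (at most 4.9), as were TYRP1 and GPR143 in 1205Lu (at most 3.2), and 5 of the 10 markers had a median of at least 10 in 1205Lu and 7 in each of WM793 and A375. The 8 markers of leukocytes, endothelium, epithelium and smooth muscle summed to at most 108.9. BRAFi + MEKi without DOX lowered 9 of 9 MAPK output genes in 1205Lu and A375 and 8 of 9 in WM793. Of all genes tested, 30.9% in 1205Lu, 39.5% in A375 and 37.3% in WM793 were called there, in either direction. In bulk RNA, fewer cells with a transcript and less of it per cell cannot be told apart.

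The order of the receptors differed between lines in the vehicle, and whether the DMSO libraries had met DOX in the 24-hour step is not settled by the sources. Levels of different genes were compared per kb of the canonical transcript, with no test. In 1205Lu DMSO, NR2F1 stood at 935 ± 604 per kb, NR2F2 at 268 ± 59.6 and NR2F6 at 198 ± 66.8 (SD, n = 3). In A375 DMSO the order was the reverse, with NR2F6 at 386 ± 34.9 per kb, NR2F2 at 249 ± 38.1 and NR2F1 at 127 ± 20.7. The ranges of NR2F2 and NR2F6 overlapped in 1205Lu, so that only the place of NR2F1 was clear there. In WM793 DMSO all 3 receptors lay within their spread, with NR2F1 at 238 ± 155 per kb, NR2F6 at 234 ± 35.9 and NR2F2 at 207 ± 49.6. NR2F1-AS1 cannot be placed in this order, because its level in 1205Lu DMSO was 455 per kb of its canonical transcript of 1537 bases and 30.8 per kb of its 22725 exon bases.

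NR2F1 in DMSO was 6273, 2182 and 2327 in the 1205Lu replicates, 917, 321 and 1511 in WM793, and 497, 405 and 563 in A375. All 1205Lu libraries lay above those of the other two lines, and WM793 overlapped A375. Whether part of these levels comes from cDNA made without DOX cannot be told apart from the cells' own gene. Against A375, the 1205Lu level was higher by a log2 difference of 2.71 (SE 0.49, adjusted p = 3.16e-05, limma's moderated test, Benjamini-Hochberg adjustment over all genes tested), and against WM793 by 2.05 (SE 0.49, limma adjusted p = 0.00152). WM793 and A375 differed by 0.66 (95% interval -0.35 to 1.67, limma adjusted p = 0.294), and by 1.28 without WM793 DMSO replicate 2, the lowest library (limma adjusted p = 0.0362). Without WM793 DMSO replicate 3, the highest of that group, the difference was 0.17 (limma adjusted p = 0.871). NR2F1-AS1 in DMSO was 731, 806 and 560 in 1205Lu, 869, 477 and 439 in WM793, and 291, 202 and 278 in A375. A375 was therefore below both other lines in every library, by 1.44 against 1205Lu (SE 0.22, limma adjusted p = 1.9e-06) and 1.15 against WM793 (SE 0.22, limma adjusted p = 5.07e-05). The 1205Lu and WM793 levels of NR2F1-AS1 differed by 0.29 (limma adjusted p = 0.38), and by 0.59 without WM793 DMSO replicate 1, the library with the fewest estimated reads (limma adjusted p = 0.0329). With other single libraries left out this difference was as low as 0.10.

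NR2F6 had the opposite order of lines, with 955, 824 and 978 in A375 DMSO against 537, 586 and 289 in 1205Lu and 556, 474 and 645 in WM793. Every A375 library exceeded every library of the other lines. The log2 difference was 1.02 below A375 in 1205Lu (limma adjusted p = 0.000109) and 0.73 below A375 in WM793 (limma adjusted p = 0.00404), each with an SE of 0.20, and -0.30 for 1205Lu against WM793 (limma adjusted p = 0.315). NR2F2 was the most even of the receptors between lines, at 1707, 1469 and 1082 in 1205Lu, 1399, 968 and 924 in WM793 and 1219, 1187 and 1551 in A375. Its libraries overlapped in all 3 comparisons of lines, and the log2 difference between 1205Lu and A375 was 0.09 (95% interval -0.39 to 0.57). In total, the lines differed in 3 of 4 genes for 1205Lu against A375, where 46.8% of all genes tested were called, in 2 of 4 for WM793 against A375, where 47.5% were called, and in 1 of 4 for 1205Lu against WM793, where 30.7% were called.

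NR2F1 was called raised with DOX under BRAFi + MEKi in all 3 lines and under DMSO in WM793 and A375, and the other 3 genes had no call with DOX. Under DMSO, NR2F1 with DOX was 20699, 9155 and 9270 in 1205Lu, 76313, 52746 and 65751 in WM793, and 19001, 31631 and 17271 in A375. With BRAFi + MEKi + DOX it was 35187, 35345 and 30839 in 1205Lu, 30421, 50934 and 47577 in WM793, and 23714, 35683 and 14995 in A375. Each library with DOX lay above each library without it in the same line and medium. This gene checks the labels, and its rise is what the cDNA was built to give.

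**Figure D2:**
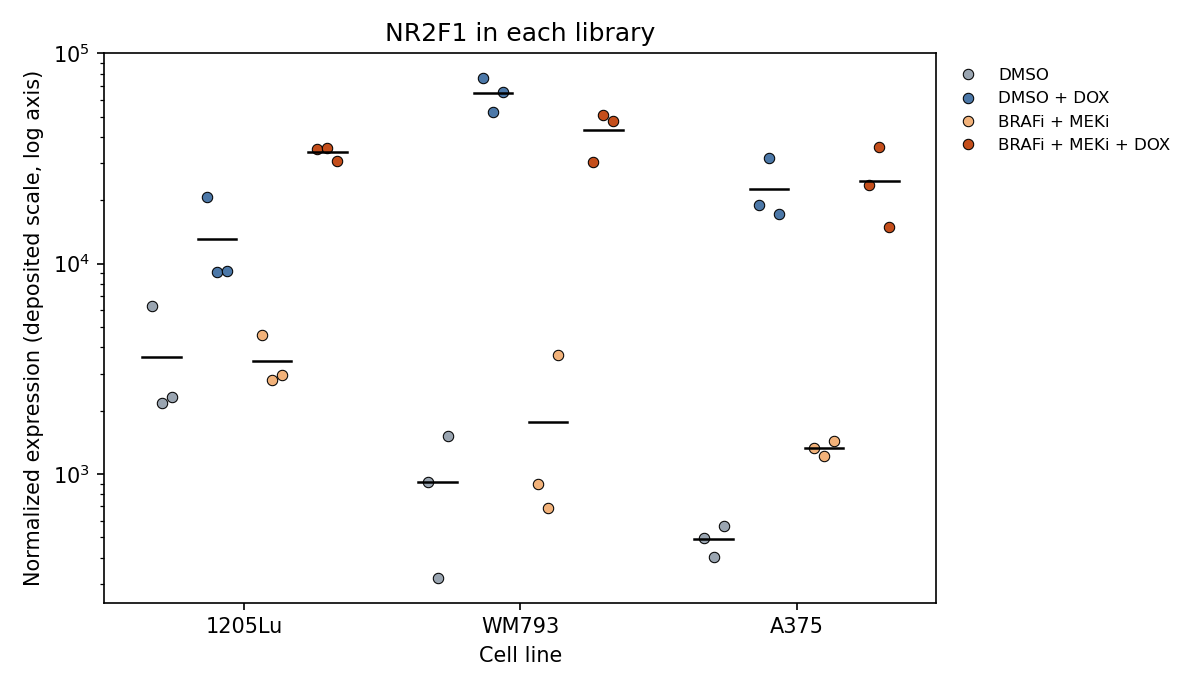
Normalized NR2F1 expression on a log axis for each of 36 libraries (points, replicates 1 to 3 from left to right) in 3 lines and 4 treatments, with horizontal lines at group means (n = 3). DOX groups lie between 9155 and 76313 and groups without DOX between 321 and 6273, with the highest values without DOX in 1205Lu.

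The induction was set against the level without DOX in each line, and its size was not tested between lines. Without DOX, NR2F1 under BRAFi + MEKi was 4575, 2805 and 2966 in 1205Lu, 894, 689 and 3690 in WM793 and 1327, 1223 and 1431 in A375. Under BRAFi + MEKi the log2 fold change with DOX was 3.33 in 1205Lu (SE 0.38), 4.99 in WM793 (SE 0.57) and 4.14 in A375 (SE 0.27). The limma adjusted p values were 0.00491, 0.00383 and 6.73e-06, and 1 of 4 members was called in each line. Against this stood 0.334% of all genes tested in 1205Lu, 0.204% of those in WM793 and 1.52% of those in A375. With the replicate number as a block, the shares were 1.64% in 1205Lu and 0.575% in WM793, where same-numbered libraries deviated together, and the calls of the members were the same. Without WM793 BRAFi + MEKi + DOX replicate 2 the NR2F1 change in WM793 was 4.85 (limma adjusted p = 0.0554). Under DMSO, NR2F1 rose by 6.39 in WM793 (SE 0.57, limma adjusted p = 8e-04) and 5.49 in A375 (SE 0.27, limma adjusted p = 3.33e-07), where it ranked 1 by size among all genes tested. There 0.512% and 0.0492% of genes were called, and NR2F1 was the 1 member called. In 1205Lu, 0 of 4 members passed limma's test under DMSO, although the libraries did not overlap (log2 fold change 1.93, SE 0.38, unadjusted p = 0.000167, adjusted p = 0.412). In that comparison 0.00903% of genes were called. NR2F1 was the 1 member with an unadjusted p under 0.05, which 6.85% of all genes tested had. Replicate 1 was the highest library of both 1205Lu groups in DMSO. Without 1205Lu DMSO replicate 1 the change was 2.42 (limma adjusted p = 0.0438), and with the replicate number as a block the limma adjusted p was 0.0202.

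The DOX effect on NR2F1 was 1.40 larger under BRAFi + MEKi than under DMSO in 1205Lu (95% interval 0.25 to 2.54, limma adjusted p = 0.838). In the other lines the fitted difference had the opposite sign, with -1.40 in WM793 (95% interval -3.14 to 0.34, limma adjusted p = 0.937) and -1.35 in A375 (95% interval -2.17 to -0.54, limma adjusted p = 0.243). Single libraries moved these values by over 1.5 times in 1205Lu, to 0.90 without DMSO replicate 1, and in WM793, to -0.65 without BRAFi + MEKi replicate 3 and -0.77 without DMSO replicate 2. None of these differences passed limma's test, and 0 of 4 members were called in any line, where the shares of all genes called were 0% in 1205Lu, 0% in WM793 and 0.46% in A375. Unadjusted p values under 0.05 were found for NR2F1 in 1205Lu (0.0204) and A375 (0.00328) and for no other member, and 5.72% of all genes tested had one in 1205Lu and 7.25% in A375. Array weights gave A375 a limma adjusted p of 0.037. Among libraries with DOX, NR2F1 was higher by 1.48 with the inhibitors in 1205Lu (SE 0.38, limma adjusted p = 0.00973), lower by 0.61 in WM793 with no overlap of libraries (limma adjusted p = 0.452, or 0.0476 with only the libraries compared), and 0.10 apart in A375 (limma adjusted p = 0.829).

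No change of NR2F1-AS1 with DOX passed the test, although the cDNA carries bases of its locus. Under DMSO + DOX it was 705, 669 and 744 in 1205Lu, 572, 377 and 374 in WM793, and 239, 312 and 302 in A375, and each set overlapped its DMSO libraries. Mean NR2F1 was 64020 higher with DOX in WM793 DMSO, while mean NR2F1-AS1 was 595 without and 441 with DOX. The NR2F1-AS1 difference there rested on DMSO replicate 1, the library with the fewest estimated reads, without which the log2 fold change was -0.08. In A375 DMSO the NR2F1 mean was 22147 higher with DOX and the NR2F1-AS1 mean 27.2 higher. The log2 fold change of NR2F1-AS1 with DOX under DMSO was 0.03 in 1205Lu (95% interval -0.40 to 0.46), -0.39 in WM793 (-0.94 to 0.16) and 0.15 in A375 (-0.20 to 0.51). Under BRAFi + MEKi it was -0.06 in 1205Lu (95% interval -0.49 to 0.37), -0.19 in WM793 (-0.74 to 0.36) and -0.27 in A375 (-0.62 to 0.09). In A375 all BRAFi + MEKi + DOX libraries (601, 615 and 533) were below all BRAFi + MEKi libraries (699, 661 and 741), with a limma adjusted p of 0.647. The lowest limma adjusted p over these 6 comparisons was 0.647, and intervals that reach a log2 value of 0.51 above 0 do not exclude changes of that size.

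NR2F2 and NR2F6 were also without a call for DOX in any line or medium. NR2F2 with DOX under DMSO was 1382, 1078 and 1106 in 1205Lu, 1323, 1048 and 1002 in WM793 and 1388, 1178 and 1847 in A375, overlapping DMSO in every line. Its log2 fold changes with DOX lay between -0.31, in 1205Lu under BRAFi + MEKi, and 0.14, in A375 under DMSO. NR2F6 with DOX under DMSO was 347, 342 and 331 in 1205Lu, 631, 497 and 647 in WM793 and 616, 850 and 798 in A375. Its changes lay between -0.40 in 1205Lu (95% interval -0.91 to 0.10) and 0.19 in 1205Lu under BRAFi + MEKi, where the libraries with DOX (299, 293 and 348) were all higher than those without (261, 282 and 278) with a limma adjusted p of 0.871.

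**Figure D3:**
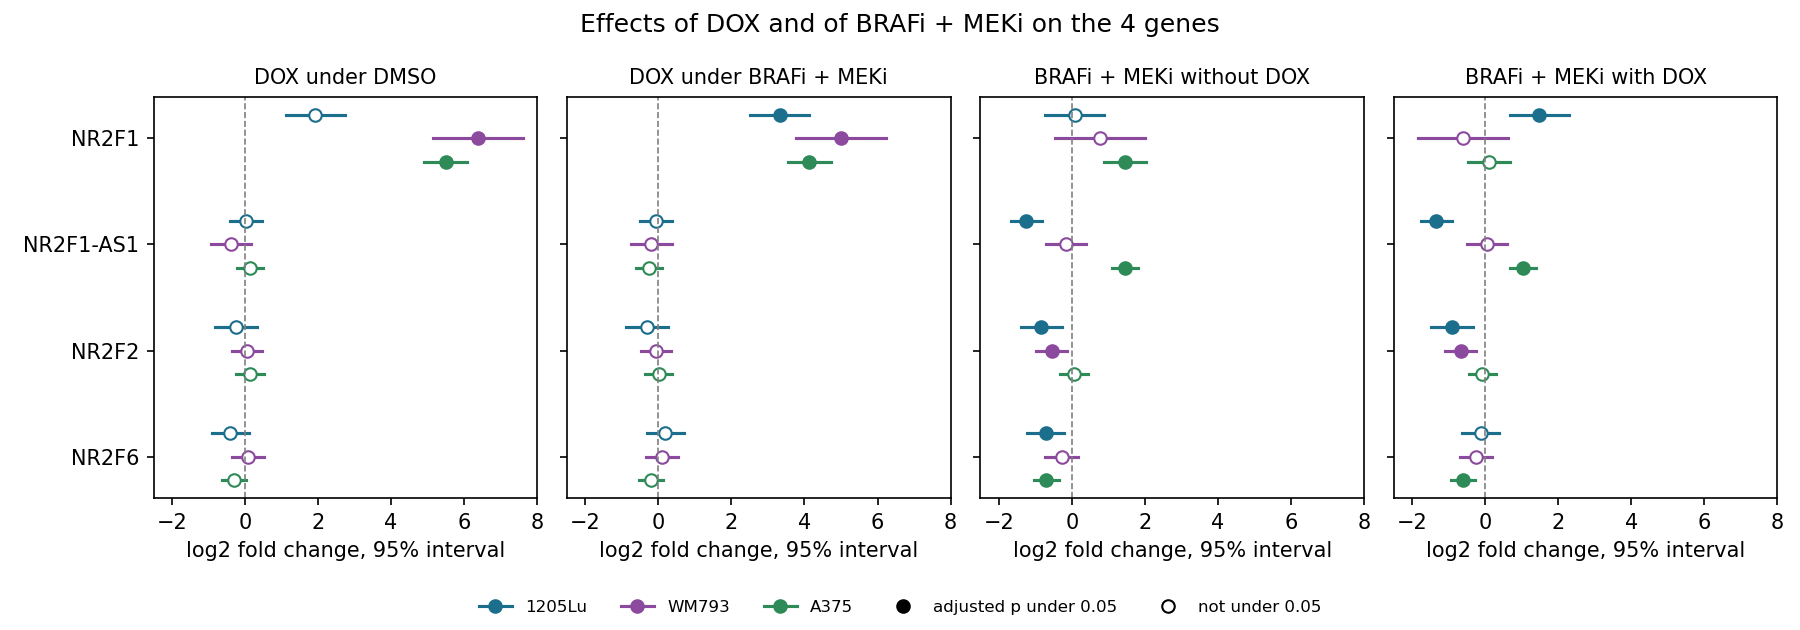
Log2 fold changes (points) with 95% intervals (lines) of the 4 genes for DOX under DMSO, DOX under BRAFi + MEKi, BRAFi + MEKi without DOX and BRAFi + MEKi with DOX, in 3 lines, with filled points where limma's adjusted p was under 0.05. Only NR2F1 has filled points for DOX, and NR2F1-AS1 lies at -1.24 in 1205Lu and 1.46 in A375 for BRAFi + MEKi without DOX.

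BRAFi + MEKi moved NR2F1-AS1 in opposite directions in 1205Lu and A375. In 1205Lu it went from 731, 806 and 560 in DMSO to 339, 330 and 221 with the inhibitors, so that no library overlapped. In A375 it went from 291, 202 and 278 to 699, 661 and 741, again without overlap. The log2 fold change was -1.24 in 1205Lu (SE 0.20, limma adjusted p = 0.000421) and 1.46 in A375 (SE 0.17, limma adjusted p = 1.15e-05). With DOX in the medium the same directions were found, with -1.33 in 1205Lu (SE 0.20, limma adjusted p = 0.000302, libraries at 261, 269 and 311) and 1.04 in A375 (SE 0.17, limma adjusted p = 0.000336). WM793 libraries overlapped, at 869, 477 and 439 in DMSO and 425, 488 and 626 with the inhibitors (log2 fold change -0.16, 95% interval -0.71 to 0.39). The inhibitor response of NR2F1-AS1 differed between lines, by -2.70 for 1205Lu against A375 (SE 0.31, limma adjusted p = 6.16e-07), -1.62 for WM793 against A375 (SE 0.31, limma adjusted p = 0.000223) and -1.08 for 1205Lu against WM793 (SE 0.31, limma adjusted p = 0.0153). The last of these lost its call without 1205Lu BRAFi + MEKi replicate 3 (-0.88, limma adjusted p = 0.0631), WM793 DMSO replicate 3 (-0.90, limma adjusted p = 0.0556) or WM793 BRAFi + MEKi replicate 3 (-0.93, limma adjusted p = 0.0578). NR2F1-AS1 was the 1 member called in each of these 3 comparisons, where 14.7%, 22.8% and 14.5% of all genes tested were called.

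The level of NR2F1 without DOX rose with the inhibitors in A375 from 497, 405 and 563 to 1327, 1223 and 1431, a log2 fold change of 1.45 (SE 0.27, limma adjusted p = 0.000702) with no overlap of libraries. In A375 the values of NR2F1, whether from the cells' own gene or the cDNA, and of NR2F1-AS1 were both higher. In 1205Lu NR2F1 overlapped between media (log2 fold change 0.09, 95% interval -0.72 to 0.90) while NR2F1-AS1 was lower. That NR2F1 change was 0.58 without 1205Lu DMSO replicate 1 (limma adjusted p = 0.196) and -0.18 without 1205Lu DMSO replicate 2 (limma adjusted p = 0.787). WM793 NR2F1 was 0.78 higher with an interval that includes 0 (95% interval -0.45 to 2.01, limma adjusted p = 0.309), and replicate 3 held the highest value of both WM793 groups. This value moved widely between settings, to 1.73 with array weights (limma adjusted p = 0.0275), 0.04 without WM793 BRAFi + MEKi replicate 3 (0.978), 0.16 without WM793 DMSO replicate 2 (0.848) and 1.27 without WM793 DMSO replicate 3 (0.111). The inhibitor response of NR2F1 did not pass the test between any pair of lines, with -1.37 for 1205Lu against A375 (95% interval -2.79 to 0.06, limma adjusted p = 0.207), -0.70 for 1205Lu against WM793 (limma adjusted p = 0.616) and -0.67 for WM793 against A375 (limma adjusted p = 0.549). The first was -0.87 without 1205Lu DMSO replicate 1. With single libraries left out the second ranged from -1.19 to 0.05, the latter without WM793 BRAFi + MEKi replicate 3, and the third from -1.41 without that library to -0.18 without WM793 DMSO replicate 3. Over all alternatives the second reached -1.40 and the third 0.07, so the sign of both was not fixed, and neither was called in any.

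NR2F2 fell with the inhibitors in 1205Lu and WM793. In 1205Lu it went from 1707, 1469 and 1082 to 873, 895 and 610, and in WM793 from 1399, 968 and 924 to 842, 776 and 608, with no overlap in either line. The log2 fold change was -0.84 in 1205Lu (SE 0.26, limma adjusted p = 0.0273) and -0.55 in WM793 (SE 0.19, limma adjusted p = 0.0376). Both calls depended on single libraries. They were lost without 1205Lu DMSO replicate 1 (-0.69, limma adjusted p = 0.102), 1205Lu DMSO replicate 2 (-0.80, 0.0771) or 1205Lu BRAFi + MEKi replicate 3 (-0.66, 0.119), and without WM793 DMSO replicate 1 (-0.36, 0.157), WM793 BRAFi + MEKi replicate 2 (-0.59, 0.0637) or WM793 BRAFi + MEKi replicate 3 (-0.41, 0.154), and also when libraries were rescaled to the same total (limma adjusted p = 0.0595 and 0.184). With DOX the change was -0.91 in 1205Lu (SE 0.26, limma adjusted p = 0.0195) and -0.67 in WM793 (SE 0.19, limma adjusted p = 0.0161). The 1205Lu libraries with BRAFi + MEKi + DOX were 976, 562 and 452, and those of WM793 were 599, 846 and 675. These calls were lost without 1205Lu DMSO + DOX replicate 1 (limma adjusted p = 0.0725), 1205Lu BRAFi + MEKi + DOX replicate 2 (0.0716) or 3 (0.095), WM793 DMSO + DOX replicate 1 (0.0756), or WM793 BRAFi + MEKi + DOX replicate 1 (0.0659) or 3 (0.0537), and after the same rescaling (0.0542 and 0.0686). In A375, NR2F2 with the inhibitors was 1221, 1330 and 1571, within the range of DMSO apart from its highest library, and the change was 0.06 (95% interval -0.31 to 0.44). The response of 1205Lu against A375 differed by -0.90 with a limma adjusted p of 0.0653, and by -1.08 (limma adjusted p = 0.0337) without 1205Lu DMSO replicate 3.

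NR2F6 fell with the inhibitors in A375, from 955, 824 and 978 to 567, 494 and 649 without overlap (log2 fold change -0.69, SE 0.15, limma adjusted p = 0.00269). With DOX it fell there by 0.60 on the log2 scale (SE 0.15, limma adjusted p = 0.00916), with BRAFi + MEKi + DOX libraries at 475, 558 and 452. In 1205Lu it went from 537, 586 and 289 to 261, 282 and 278, which did not overlap although DMSO replicate 3 was close to the treated libraries. That change was -0.72 (SE 0.23, limma adjusted p = 0.0327), and it lost its call without any one of 1205Lu DMSO replicate 1 (-0.59, limma adjusted p = 0.116), DMSO replicate 2 (-0.52, 0.138), BRAFi + MEKi replicate 1 (-0.68, 0.0805), replicate 2 (-0.74, 0.0662) or replicate 3 (-0.73, 0.0741). Without 1205Lu DMSO replicate 3 it was -1.03. With DOX the 1205Lu change was -0.12 (95% interval -0.63 to 0.38). WM793 libraries overlapped in both media, with changes of -0.28 and -0.26.

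**Figure D4:**
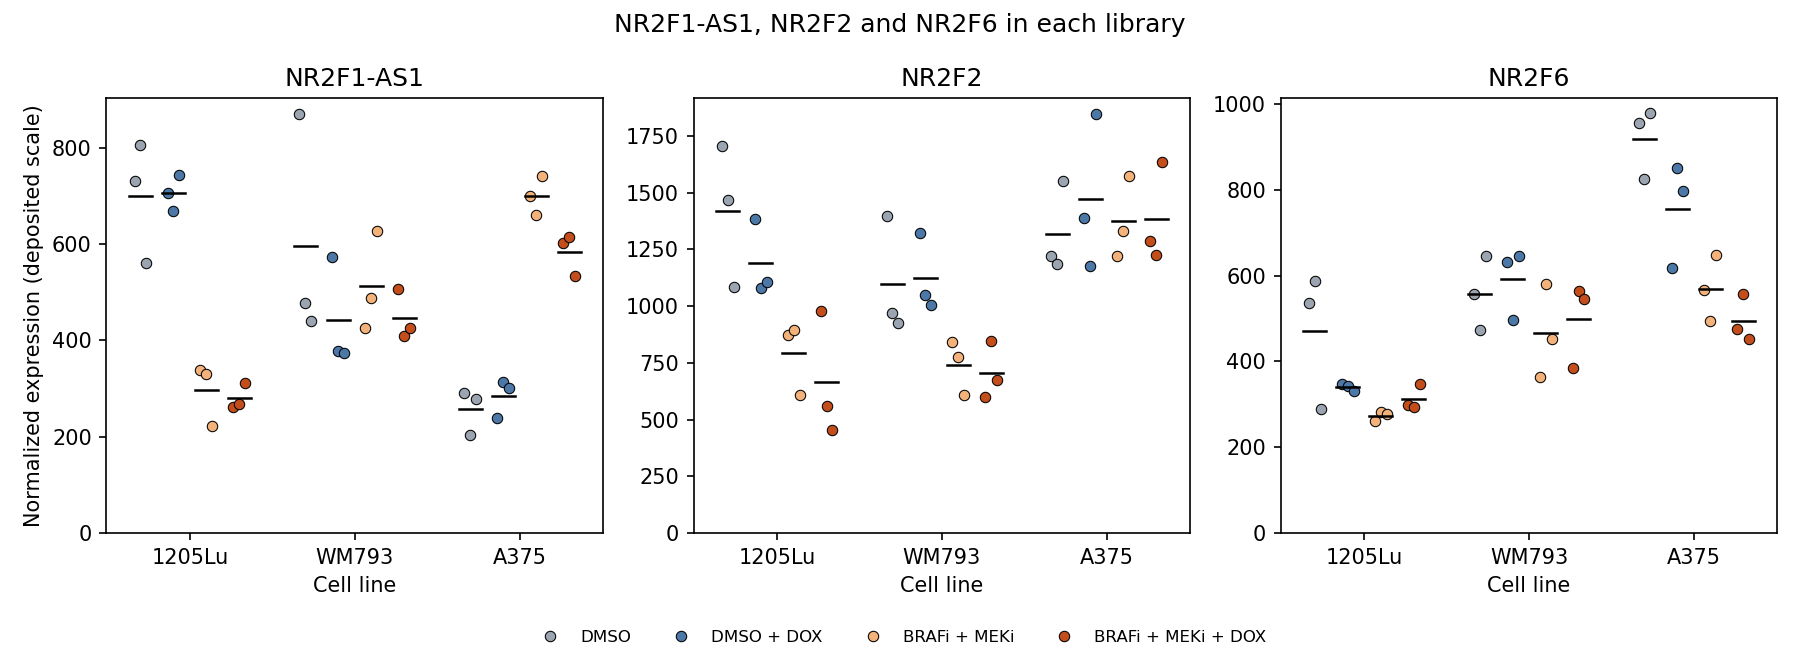
Normalized expression of NR2F1-AS1, NR2F2 and NR2F6 in each of 36 libraries (points, replicates 1 to 3 from left to right) in 3 lines and 4 treatments, on linear axes from 0, with horizontal lines at group means (n = 3). NR2F1-AS1 is lower with BRAFi + MEKi in 1205Lu and higher in A375, and no difference between groups with and without DOX in the same medium passed limma's test.

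In all, BRAFi + MEKi without DOX changed 3 of 4 members in 1205Lu, where 30.9% of all genes tested were called, 1 of 4 in WM793, where 37.3% were called, and 3 of 4 in A375, where 39.5% were called. With DOX the counts were 3, 1 and 2 of 4, against 28.2%, 31.7% and 31% of all genes. Calls of this kind were therefore common among all genes, and nothing particular to the members is read from these counts. Rescaling libraries to the same total moved the median log2 fold change of all genes by 0.18 in WM793, 0.14 in A375 and 0.06 in 1205Lu for BRAFi + MEKi without DOX, and no called change of a member turned its direction.

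The other receptors of the NR2 subfamily include the retinoid X receptors and the HNF4 receptors. Of the 9 listed, 6 were tested in 1205Lu, 6 in WM793 and 8 in A375. With BRAFi + MEKi without DOX, 2, 2 and 4 of these were called, beside 30.9%, 37.3% and 39.5% of all genes tested. RXRA and RXRB, the retinoid X receptors that pair with many nuclear receptors, rose with BRAFi + MEKi without DOX in all 3 lines. RXRA rose by 0.77, 0.68 and 0.92 and RXRB by 0.91, 0.52 and 0.63 in 1205Lu, WM793 and A375 (highest limma adjusted p = 0.0037). RXRG, the third retinoid X receptor, was the 1 of the 6 tested in WM793 that was called with DOX, where array weights gave 2 calls in each medium, and 0.512% of all genes were called under DMSO and 0.204% under BRAFi + MEKi. In the other lines 0 were called with DOX. The shares of all genes called there were 0.00903% in 1205Lu and 0.0492% in A375 under DMSO, and 0.334% and 1.52% under BRAFi + MEKi. In WM793 the RXRG mean fell from 1501 to 464 under DMSO (log2 fold change -1.69, SE 0.26, limma adjusted p = 0.0136) and from 1149 to 326 under BRAFi + MEKi (-1.83, SE 0.26, limma adjusted p = 0.0151). In DMSO its mean was 20.5 in 1205Lu and 38.0 in A375. HNF4G and RXRG fell with the inhibitors in A375, by 1.30 (with overlapping libraries) and 3.76 on the log2 scale. With DOX in the medium neither was called there, with changes of 0.22 for HNF4G (limma adjusted p = 0.728) and -1.50 for RXRG (0.194). NR2E3, with A375 group means of at most 4.38, was lower with the inhibitors in A375 with DOX (limma adjusted p = 0.0325).

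Among 16 corepressors, coactivators and partners of COUP-TFs, none was called with DOX in any line or medium, although in 1205Lu under BRAFi + MEKi the replicate block gave 1 call and array weights 3. The shares of all genes called with DOX lay between 0.00903% and 1.52%. In 1205Lu under BRAFi + MEKi they were 1.64% with the block and 6.23% with array weights. Nothing particular to this list is read from its DOX counts. With BRAFi + MEKi without DOX, 3 rose and 1 fell in 1205Lu, 2 rose and 5 fell in WM793, and 5 rose and 5 fell in A375, beside shares of 30.9%, 37.3% and 39.5% called among all genes tested. The coactivators NCOA2 and NCOA1 rose in all 3 lines, NCOA2 by 0.85, 0.63 and 1.79 and NCOA1 by 0.81, 0.46 and 1.02 in 1205Lu, WM793 and A375. HDAC2, a histone deacetylase of corepressor complexes, fell by 0.68, 0.98 and 0.97. TBL1X, TBL1XR1 and GPS2 belong to the NCOR corepressor complex. TBL1X fell in WM793 and A375, TBL1XR1 fell in WM793 and A375, and GPS2 rose in A375 by 0.85 (limma adjusted p = 0.000482). The median change of those tested (16 in 1205Lu, 15 in the other lines) was -0.055 against 0.108 for all genes in 1205Lu, -0.079 against 0.15 in WM793, and 0.067 against 0.064 in A375.

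A list of 6 genes that the dormancy literature links to NR2F1 was counted in the same way. With DOX, 1 of the 6 was called, in 1 of 6 comparisons, WM793 under DMSO, where 0.512% of all genes tested were called. Over the 6 comparisons the shares of all genes called lay between 0.00903% and 1.52%. RARB, the retinoic acid receptor beta, rose in WM793 under DMSO from a mean of 71.1 to 365 (log2 fold change 2.19, SE 0.32, limma adjusted p = 0.0105; no call with only the libraries compared), and under BRAFi + MEKi from 221 to 427 without a call (0.95, limma adjusted p = 0.388). With BRAFi + MEKi without DOX, 3 rose and 1 fell in 1205Lu, 2 rose and 0 fell in WM793, and 3 rose and 1 fell in A375, where 30.9%, 37.3% and 39.5% of all genes tested were called. The median change of the 6 was 0.46, 0.786 and 0.418 in these lines, against 0.108, 0.15 and 0.064 for all genes. The WM793 count was 4 in all with the replicate block, rescaling or array weights. RARB rose in all lines, by 0.88, 1.62 and 1.32 in 1205Lu, WM793 and A375. BHLHE41, a circadian repressor, fell by 2.37 in 1205Lu and 3.26 in A375, CDKN1B, the cell-cycle inhibitor p27, rose by 0.78 and 0.88 in the same lines, and TGFB2 rose by 1.57 in WM793 and 1.84 in A375. MAPK14, the stress kinase p38 alpha, rose in 1205Lu by 0.46 (limma adjusted p = 0.0389). SOX9 was not called in these comparisons.

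The nearest coding genes on each side of the members were counted as well, some of them far away. FAM172A, 23114 bases downstream of NR2F1, was called higher in A375 by 0.42 with BRAFi + MEKi (limma adjusted p = 0.0391). ARRDC3, 1977462 bases from NR2F1-AS1 on the side away from NR2F1, was called in WM793, where it fell by 0.99 (limma adjusted p = 0.00353). ARRDC4, the next coding gene beyond NR2F2 at a distance of 1620440 bases, rose with BRAFi + MEKi in all lines, by 2.97 in 1205Lu, 3.26 in WM793 and 1.16 in A375, whereas NR2F2 was lower in 1205Lu and WM793. Of 8 neighbours, NR2F2-AS1 included, 6 were tested in 1205Lu and 7 in each of WM793 and A375, and none of those tested was called with DOX, where the shares of all genes called lay between 0.00903% and 1.52%. With BRAFi + MEKi without DOX, 1, 2 and 2 were called in 1205Lu, WM793 and A375, beside 30.9%, 37.3% and 39.5% of all genes. The 1 gene that overlaps exons of NR2F6, by 221 bases, was listed at 0 in all libraries.

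Likeness between genes was described over the 36 libraries after subtraction of each line's mean, as Pearson's r of log2 values and with no test, since the libraries share treatments and scaling. NR2F1-AS1 and NR2F2 had an r of 0.488, NR2F2 and NR2F6 0.4, and NR2F1 with the other members between -0.12 and -0.091. Libraries with and without DOX were pooled here, and NR2F1 ranged from 321 to 76313 over them. Each r of NR2F1 therefore includes its induction by DOX and does not show how its level without DOX moved with other genes. The genes most like NR2F1 were HSPA1A (r = 0.76), HSPA1B (0.715) and SLC41A3 (0.687). HSPA1A and HSPA1B are near-identical heat shock genes, so the split of reads between them is uncertain. NR2F1-AS1 was most like NPTN (0.876), WDR37 (0.841) and PPP1R3F (0.827), among 16621 genes. NR2F2 was most like CNIH3 (0.885), EN2 (0.875) and ENSG00000272341 (0.872), and NR2F6 most like ZNF787 (0.89), NDUFAF3 (0.885) and SLC39A4 (0.877).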

How the data were processed

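RNA-Seq was performed on 36 libraries of 3 melanoma lines. The authors aligned reads with STAR to GRCh38 with GENCODE 35, quantified genes with RSEM and normalized them with DESeq2, and deposited these as signal values, 1 per gene and library, scaled over all libraries. They are normalized values and not counts. The number of reads was estimated as a library's sum divided by its commonest low value. This takes that value to stand for 1 read, which was not tested. Here log2(value + 1) was tested with limma 3.58.1 (R 4.3.3), its moderated test with a mean-variance trend, over the 12 libraries of a line or over 36 libraries between lines. The test took genes whose mean reached 1 in some group, with Benjamini-Hochberg adjustment over all of them and a threshold of 0.05. Loci and sequences came from GENCODE 44 on GRCh38. The methods describe in vitro replicates as independent experiments. Same-numbered libraries deviated together for DOX under BRAFi + MEKi in 1205Lu and WM793, with every r over 0.1 across the genes tested. The lowest r values there were 0.109 and 0.105. In the other comparisons within a line these r values were also positive but did not all pass 0.1. They lay between 0.004 (WM793, BRAFi + MEKi with DOX) and 0.234 (A375, DOX under DMSO). The labels give no shared day or batch. The script was tested on simulated data.

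The members and the other lists were chosen with earlier results of these data known. Named genes were the 4 members, the 3 genes most like each (mean of at least 10), and up to 6 called genes of each list with the lowest adjusted p. Alternatives were libraries rescaled to the same total, a pseudocount of 0.1, no filter, only the libraries compared, a replicate block, array weights and leaving out each library.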

Additional observations from a re-analysis of the deposited data

Results flagged for a closer look

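The inhibitor response of NR2F1-AS1 differed between each pair of lines by a test of the difference itself (limma's moderated test, Benjamini-Hochberg adjustment). The log2 difference was -2.70 for 1205Lu against A375 (adjusted p = 6.16e-07), -1.62 for WM793 against A375 (adjusted p = 0.000223) and -1.08 for 1205Lu against WM793 (adjusted p = 0.0153). The last lost its call with only the libraries compared (adjusted p = 0.0869) and without 1205Lu BRAFi + MEKi replicate 3 (0.0631), WM793 BRAFi + MEKi replicate 3 (0.0578) or WM793 DMSO replicate 3 (0.0556). In 1205Lu and A375, 3 of 3 libraries with BRAFi + MEKi lay outside the range of DMSO, below it in 1205Lu and above it in A375.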

How the results depend on the processing

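Of the 27 changes or differences of a member that passed limma's test, 20 kept their call under every alternative, 7 lost it under at least 1, and 0 turned direction. Rescaled to the same total, NR2F2 with BRAFi + MEKi was -0.78 in 1205Lu and -0.35 in WM793 without DOX and -0.81 and -0.50 with DOX, and NR2F6 in 1205Lu without DOX was -0.65, all without a call. With only the libraries compared, the difference in NR2F1-AS1 response of 1205Lu against WM793 (-1.08), NR2F2 in WM793 without DOX (-0.55) and NR2F6 in 1205Lu without DOX (-0.72) lost their calls, and with array weights NR2F6 in 1205Lu without DOX (-0.50) did. With single libraries left out, the ranges were 4.53 to 5.74 for NR2F1 with DOX under BRAFi + MEKi in WM793, -1.39 to -0.88 for the NR2F1-AS1 response of 1205Lu against WM793, -1.23 to -0.67 and -1.02 to -0.66 for NR2F2 in 1205Lu with and without DOX, -0.81 to -0.55 and -0.66 to -0.36 for NR2F2 in WM793 with and without DOX, and -1.03 to -0.52 for NR2F6 in 1205Lu without DOX. The cause was not tested. The number of members called with BRAFi + MEKi without DOX was 1 in 1205Lu and 0 in WM793 after rescaling, 0 in WM793 with only the libraries compared and 2 there with array weights. With DOX in WM793 it was 0 after rescaling and 2 with only the libraries compared. For the response of 1205Lu against A375 it was 2 with array weights or only the libraries compared, for 1205Lu against WM793 it was 0 with only the libraries compared, and for the difference between DOX effects in A375 it was 1 with array weights. Leaving out single libraries gave 1 to 3 members called for BRAFi + MEKi without DOX in 1205Lu, 0 to 1 in WM793 with or without DOX, 0 to 1 for DOX under DMSO in 1205Lu and under BRAFi + MEKi in WM793, 1 to 2 for the response of 1205Lu against A375, 0 to 2 for that of 1205Lu against WM793, and 1 to 2 for the DMSO level of 1205Lu against WM793.

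With the replicate block, NR2F1 with DOX under DMSO in 1205Lu was called (1.93, limma adjusted p = 0.0202; 1 member called instead of 0), and no other call of a member changed. The block moved the number of all genes called by over 1.5 times for 5 of the 6 DOX comparisons (not for DMSO in 1205Lu, from 2 to 3), from 74 to 364 (1205Lu) and 45 to 127 (WM793) under BRAFi + MEKi, from 370 to 601 in A375, and from 113 to 284 (WM793) and 12 to 79 (A375) under DMSO. For BRAFi + MEKi, rescaling moved the share of called genes that were higher from 54.8% to 69.1% in WM793 and from 52% to 62.5% in A375 without DOX, and from 52.6% to 67% and 52.2% to 64.1% with DOX. For DOX under DMSO in WM793 it moved from 37.2% to 48%, and for the response of 1205Lu against WM793 from 45.1% to 31.5%. Over all alternatives, the share of all genes called for DOX under BRAFi + MEKi ranged from 0.0224% to 6.23% in 1205Lu, 0.0181% to 2.17% in WM793 and 0.917% to 4.25% in A375. For DOX under DMSO it ranged from 0.0045% to 0.0315%, 0.158% to 1.9% and 0.0285% to 0.324%, for the difference between both from 0% to 0.257%, 0% to 0.195% and 0.163% to 0.968%, and for BRAFi + MEKi with DOX in 1205Lu from 20.9% to 43.6%. The counts of the gene lists moved too, by over 1.5 times or to or from 0 in 45 of their values, over 28 counts. With BRAFi + MEKi without DOX, calls among neighbours went from 1 to 2 in 1205Lu and from 2 to 4 in WM793 with the replicate block or rescaling, and among other NR2 receptors from 2 to 4 in WM793 with array weights. List counts were not recomputed with single libraries left out. The deposited values carry no read counts, so the counting error behind a level is unknown. WM793 DMSO replicate 1 had the fewest estimated reads.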
